A study of Mus musculus with 60 samples.

Results

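The ventral midbrain step set 3 libraries of embryonic day E12.5 against 3 libraries of E11.5, so 6 of the 60 libraries of this mouse brain series. They were taken by their region and stage labels and not by any measured value. Bulk RNA sequencing of total RNA covered 5 brain regions at 4 daily stages with 3 libraries per region and stage. All embryos came from TH-GFP mice, which carry a green fluorescent reporter for tyrosine hydroxylase, and no group without the reporter was compared. The pieces were cut under a fluorescence stereomicroscope from the floor plate and basal plate of the midbrain, per the labels domains M3 to M7, so each holds progenitors and several kinds of newborn neurons. The E12.5 libraries carry the replicate numbers 1, 2 and 3, and the E11.5 libraries the numbers 2, 4 and 6. The labels do not say whether these numbers are separate embryos or litters, and the p-values reflect no more than the spread among these libraries, which may be technical.

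Midbrain dopaminergic neurons come from floor plate progenitors that make Shh and the transcription factors Foxa2 and Lmx1a. These progenitors leave the cell cycle, pass through a Neurog2-dependent step and switch on Nr4a2, the nuclear receptor needed for the dopaminergic programme. Th follows, and then Pitx3 and the dopamine transporter Slc6a3, which mark the more mature neurons. Serotonergic neurons, which share several of these enzymes and transporters, arise just behind the midbrain on the hindbrain side of the isthmus.

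The 3 genes that mark dopaminergic neurons fitted the label at E12.5. Values are RPKM, reads scaled to the listed length of the gene and to the library's total, and are given in the order replicates 1, 2 and 3 for E12.5 and replicates 2, 4 and 6 for E11.5. Pitx3, a homeodomain factor of maturing dopaminergic neurons, had 21.2, 29.0 and 26.6 RPKM at E12.5, against 0, 0 and 0.560 RPKM at E11.5. The dopamine transporter Slc6a3 had 6.81, 11.6 and 10.3 RPKM at E12.5 and no read in any of the 3 E11.5 libraries. Chrna6, a nicotinic receptor subunit of dopaminergic neurons, had 7.06, 11.3 and 8.49 RPKM at E12.5 and again no read at E11.5. In all 3 markers every E12.5 library exceeded every E11.5 library. The share of all genes without overlap between the stages is not given here, so lack of overlap in named genes adds no support. At E11.5 the progenitor genes Lmx1a and Foxa2 were high in replicates 2 and 6 and low in replicate 4. Lmx1a was also high in libraries labelled ventral forebrain, which did not all match their own group best, as described below. At E11.5 it averaged 33.6 RPKM here (49.8 RPKM without replicate 4) and 47.4 RPKM in the ventral forebrain. Foxa2 averaged 50.7 RPKM here (71.6 RPKM without replicate 4) and 21.5 RPKM there.

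Several libraries stood apart in ways that touch the results. E11.5 replicate 4 had 1.16 RPKM of Lmx1a and 9.07 RPKM of Foxa2, where E11.5 replicates 2 and 6 had 45.9 and 53.6 RPKM of Lmx1a and 72.1 and 71.0 RPKM of Foxa2. Across genes it correlated better with the E11.5 ventral hindbrain libraries (r = 0.977) than with its own group (r = 0.962). Of 9333 features with at least 5 RPKM, 77 were more than 1 log2 unit above both other E11.5 ventral midbrain libraries in replicate 4 and 146 below both. List counts and the main genes are therefore given with 6 libraries and again with 5, without that library; a single value is from 6 libraries. E11.5 replicate 6 held more RNA of mesenchyme and blood: the 17 genes of the meninges and mesenchyme list summed to 216 RPKM there, against 39.3 to 42.0 RPKM at E12.5 and 31.8 and 21.3 RPKM in E11.5 replicates 2 and 4. Reads of the Y-linked genes Ddx3y, Eif2s3y, Kdm5d and Uty lay almost wholly in E12.5 replicate 3 (6.39 to 28.6 RPKM), which had 0.215 RPKM of Xist, while the other 5 libraries had 60.5 to 85.9 RPKM of Xist. No gene of this list was called, and without E12.5 replicate 3 the 6-library comparison below gave 1115 called genes. Depth was 8671033 to 11259112 assigned reads at E12.5 and 2166232 to 5000420 at E11.5. The sample descriptions also open with different prefixes, S092 at E11.5 and E12dot5 at E12.5. Whether these prefixes stand for a batch was not tested, and stage and any such batch cannot be told apart. In such bulk pieces, fewer cells of a type and less RNA per cell cannot be told apart either.

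The promoters of 4 genes that were at or near 0 in all E11.5 libraries are shown because these genes changed together: Pitx3 and Slc6a3 for dopaminergic neurons, Fev and Tph2 for serotonergic neurons. The windows run from 250 bases before to 50 bases after the RefSeq start on GRCm38.p6, 5′ to 3′ on the gene's strand, and lie at chr19:46148276-46148575 (minus strand) for Pitx3, chr13:73536497-73536796 (plus strand) for Slc6a3, chr1:74885359-74885658 (minus strand) for Fev and chr10:115184973-115185272 (minus strand) for Tph2. Capitals mark matches to any of 4 motifs searched on both strands.
Pitx3: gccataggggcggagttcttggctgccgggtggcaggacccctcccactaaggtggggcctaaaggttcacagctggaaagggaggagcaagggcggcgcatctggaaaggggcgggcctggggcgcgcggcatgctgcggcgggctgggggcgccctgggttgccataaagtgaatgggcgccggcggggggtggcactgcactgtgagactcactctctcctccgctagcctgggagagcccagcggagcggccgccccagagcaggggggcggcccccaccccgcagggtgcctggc
Slc6a3: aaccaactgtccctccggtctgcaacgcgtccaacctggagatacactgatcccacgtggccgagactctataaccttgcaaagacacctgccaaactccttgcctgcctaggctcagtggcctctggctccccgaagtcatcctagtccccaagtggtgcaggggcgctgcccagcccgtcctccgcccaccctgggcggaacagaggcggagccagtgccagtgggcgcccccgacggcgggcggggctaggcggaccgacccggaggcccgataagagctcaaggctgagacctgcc
Fev: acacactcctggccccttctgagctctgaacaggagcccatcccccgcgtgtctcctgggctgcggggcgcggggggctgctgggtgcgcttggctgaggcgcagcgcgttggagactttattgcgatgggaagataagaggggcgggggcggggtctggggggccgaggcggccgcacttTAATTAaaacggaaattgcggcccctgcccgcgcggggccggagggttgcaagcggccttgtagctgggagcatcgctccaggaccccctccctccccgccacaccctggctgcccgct
Tph2: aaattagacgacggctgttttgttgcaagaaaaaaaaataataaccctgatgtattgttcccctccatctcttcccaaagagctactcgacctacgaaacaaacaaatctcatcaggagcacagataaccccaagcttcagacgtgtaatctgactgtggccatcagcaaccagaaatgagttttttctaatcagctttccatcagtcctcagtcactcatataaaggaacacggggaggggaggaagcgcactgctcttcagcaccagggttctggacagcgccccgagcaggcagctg
The motifs were AAGGTCA (the core of the site bound by Nr4a2 and its relatives), TAATTA (homeobox factors such as Lmx1b and En1), TAATCC (Pitx factors) and TGTTTAC (Foxa factors). Only the Fev window held a match, a single TAATTA. Among 32851 RefSeq promoter windows of the same length, 4.72% held AAGGTCA, 5.29% TAATTA, 7.06% TAATCC and 3.65% TGTTTAC. The windows of Pitx3, Slc6a3 and Fev were rich in G and C (71.7%, 66.0% and 69.0%), and that of Tph2 was not (47.3%). Chrna6 had no window in the table.

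Over all genes, 13385 were tested (group mean of at least 1 RPKM at either stage) and 1266 were called at an adjusted p below 0.05 and a log2 fold change of at least 1 on the log2(RPKM + 1) scale. Of the genes tested, 9.46% were called, 5.89% as higher at E12.5 (788 genes) and 3.57% as lower (478 genes). Among these calls, 778 of the higher and 475 of the lower genes did not overlap between the stages in any library. The called genes were already chosen for a difference between the stages, so this count adds no support. The share without overlap among all genes tested is not given here. Without E11.5 replicate 4, 1370 of 13418 genes were called (10.2%), 840 higher (6.26%) and 530 lower (3.95%). Both fits called 1132 genes in the same direction and none in opposite directions, while 134 were called with 6 libraries only and 238 with 5 only. The median change of all genes tested was -0.00432 with 6 libraries and -0.0143 with 5.

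**Figure D1:**
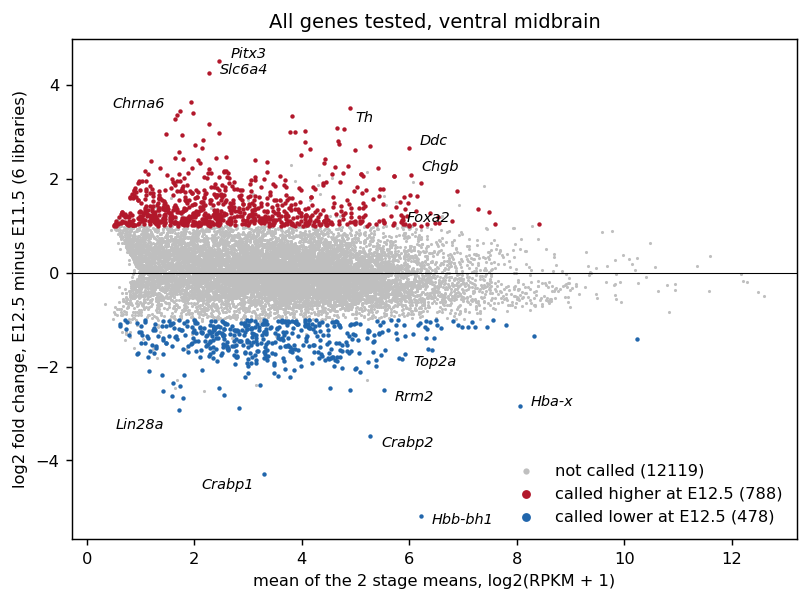
Log2 fold change of E12.5 over E11.5 (vertical axis) against the mean of the 2 stage means in log2(RPKM + 1) (horizontal axis) for the 13385 genes tested in the 6 ventral midbrain libraries. Red points are the 788 genes called higher at E12.5 and blue points the 478 called lower. Pitx3 is at the top, and the embryonic globin gene Hbb-bh1 at the bottom.

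Part of the genes for making, storing and recycling dopamine rose. Of 11 tested members of the synthesis and transport list, 5 were called higher and 0 lower in both fits, against 5.89% of all genes called higher with 6 libraries, with a median change of 0.54 over the list. Th, the rate-limiting enzyme, had 80.6, 85.0 and 71.6 RPKM at E12.5, against 13.2, 2.37 and 17.2 RPKM at E11.5. Every E12.5 library exceeded every E11.5 library, and E11.5 replicate 4 was the lowest. The log2 change of Th was 3.06 ± 0.58 (SE, adjusted p = 0.00446) with 6 libraries and 2.31 ± 0.12 with 5 (adjusted p = 0.000126). Ddc, which makes dopamine from the product of Th, had 149, 173 and 158 RPKM at E12.5, against 40.3, 8.59 and 40.5 RPKM at E11.5. Its log2 change was 2.66 with 6 libraries and 1.96 with 5. Gch1, which makes the cofactor of Th, had 14.54, 14.39 and 14.52 RPKM at E12.5, against 1.29, 0.628 and 1.06 RPKM at E11.5. Its E12.5 libraries lay close together, and its change was 2.97 ± 0.14 (adjusted p = 0.000258) with 6 libraries and 2.83 with 5. Slc18a2, the vesicular monoamine transporter, rose by 2.11 and 1.76 log2 units in the same fits.

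The transporter Slc6a3 had no E11.5 reads to set a fold against. Over the 3 E11.5 libraries together no read fell on it, against 1052 reads at E12.5, so with a limit of 3 reads over the E11.5 group its RPKM was at least 122-fold higher at E12.5. Its change on the log2(RPKM + 1) scale, which understates genes with low values, was 3.37 ± 0.19 (adjusted p = 0.000258). Among the members not called were 3 cofactor enzymes. Pts, Spr and Qdpr, enzymes that make or recycle the same cofactor as Gch1, changed by -0.22, 0.22 and -0.15 and were not called. Maoa and Maob, which break down monoamines, changed by 0.20 and 0.46 and were not called either. Dbh, which turns dopamine into noradrenaline, did not reach the level needed for a test.

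Among 16 transcription factors of the dopaminergic lineage, 5 were called higher and 0 lower with 6 libraries, and the same numbers with 5. The shares of all genes called higher were 5.89% and 6.26%. Leaving out E12.5 replicate 1, 2 or 3 from the 6 left 3 called, where 851, 717 and 692 of all genes were called higher. Nr4a2 had 96.4, 104 and 92.7 RPKM at E12.5, against 18.6, 3.83 and 35.2 RPKM at E11.5, a log2 change of 2.71 (adjusted p = 0.0122) with 6 libraries and 1.89 (adjusted p = 0.000612) with 5. Pitx3 changed by 4.51 ± 0.21 (adjusted p = 0.000258), the largest increase that the naming rule picked. It had 3 reads over the E11.5 libraries and 1162 over the E12.5 libraries, a ratio of RPKM of 138 with a 95% counting interval of 47.1 to 670. Of the E11.5 libraries, replicate 6 held all 3 reads.

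En1 and Lmx1b, homeodomain factors needed for the survival and identity of these neurons, were intermediate at E11.5. En1 had 69.7, 79.9 and 70.3 RPKM at E12.5, against 27.0, 0.452 and 15.0 RPKM at E11.5. Lmx1b had 46.3, 46.5 and 48.1 RPKM at E12.5, against 13.3, 0.303 and 9.83 RPKM at E11.5. E11.5 replicate 4 was close to background for both genes. With 6 libraries En1 changed by 3.10 ± 0.99 (adjusted p = 0.0354) and Lmx1b by 3.03 ± 0.82 (adjusted p = 0.0198), and both calls were lost when any E12.5 library was left out (adjusted p of 0.0876 to 0.0972 and 0.0583 to 0.06). Without E11.5 replicate 4 the changes were 1.81 ± 0.21 (adjusted p = 0.00056) and 1.95 ± 0.11 (adjusted p = 0.000129).

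Lmx1a and Foxa2, which are already on in progenitors, did not pass. Lmx1a had 85.0, 77.3 and 71.4 RPKM at E12.5, against 45.9, 1.16 and 53.6 RPKM at E11.5. Its log2 change was 2.15 with 6 libraries (adjusted p = 0.157) and 0.64 with 5 (adjusted p = 0.00145, below the fold threshold). Foxa2 had 78.5, 73.2 and 73.6 RPKM at E12.5, against 72.1, 9.07 and 71.0 RPKM at E11.5, with changes of 1.02 (adjusted p = 0.274) and 0.07 (adjusted p = 0.343). Bnc2, a zinc finger gene, was the fifth called member at 1.54 with 6 libraries and 1.96 with 5. Otx2, which sets midbrain identity, had 67.8, 46.1 and 49.6 RPKM at E12.5 and 102, 112 and 92.7 RPKM at E11.5, a change of -0.91 (adjusted p = 0.00235) that stayed under the fold threshold. Ebf1 changed by -0.87 and was not called either.

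**Figure D2:**
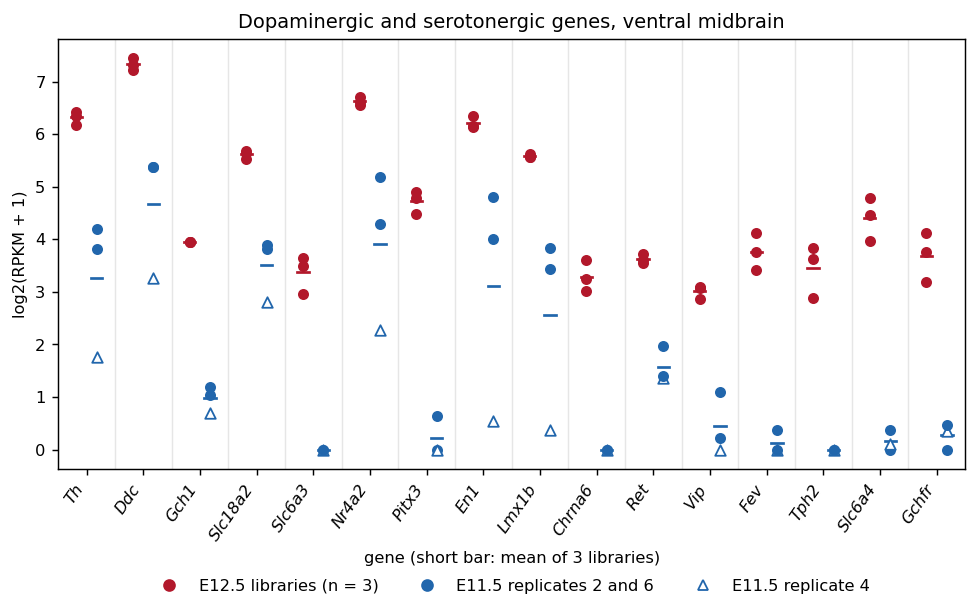
Values of 16 dopaminergic and serotonergic genes in log2(RPKM + 1), with the 3 E12.5 libraries (red) to the left of the 3 E11.5 libraries (blue) for each gene. The open triangle is E11.5 replicate 4, and short bars are group means. Slc6a3, Chrna6 and Tph2 lie at 0 in all 3 E11.5 libraries. The genes shown were chosen with earlier results of these data known.

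Receptor, neuropeptide and subset genes followed. Of 14 tested members 9 were called higher and 0 lower with 6 libraries, with a median change of 1.73, and 9 of 13 higher and 1 lower with 5. Among all genes 5.89% were higher with 6 libraries, and 6.26% higher and 3.95% lower with 5. Chrna6 changed by 3.29 ± 0.18 (adjusted p = 0.000258), and with no read at E11.5 its RPKM was at least 96.6-fold higher at E12.5. Ret, the receptor for the survival factor GDNF, had 10.7, 12.2 and 11.2 RPKM at E12.5, against 2.92, 1.56 and 1.63 RPKM at E11.5 (log2 change 2.05, and 1.94 with 5 libraries). Its co-receptor Gfra1 changed by 0.95 with 6 libraries and 0.52 with 5 and was not called. Vip, a neuropeptide gene, had 7.37, 7.59 and 6.24 RPKM at E12.5, against 1.13, 0 and 0.170 RPKM at E11.5. Gucy2c, a guanylyl cyclase of dopaminergic neurons, had 3.14, 4.18 and 3.57 RPKM at E12.5, against 0, 0 and 0.205 RPKM at E11.5. Both genes separated the stages, with changes of 2.57 for Vip and 2.12 for Gucy2c, and 2.35 and 2.07 with 5 libraries.

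Calb2, Cck, Klhl1 and the dopamine autoreceptor Drd2 were also called, at 2.42, 2.11, 1.99 and 1.38, and with 5 libraries at 2.22, 2.04, 1.95 and 1.49. Rxrg, a retinoid receptor, was called at 1.46 with 6 libraries and fell below the fold threshold without E11.5 replicate 4 (0.94). Aldh1a1, a retinaldehyde dehydrogenase that marks a ventral subset of dopaminergic neurons, went the other way. It had 0.433, 0.958 and 0.726 RPKM at E12.5, against 7.79, 0.0938 and 4.14 RPKM at E11.5. E11.5 replicate 4 lay below all E12.5 libraries and the other 2 above them, so the change of -1.12 was not called with 6 libraries (adjusted p = 0.22), and with 5 it was -1.99 (adjusted p = 0.000785). Sncg, a synuclein, changed by -0.84, under the fold threshold.

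Serotonergic genes rose as well. Of 9 tested members of this list 6 were called higher and 0 lower in both fits, though Ddc, Slc18a2 and Lmx1b among them are shared with dopaminergic neurons. The shares of all genes called higher were 5.89% with 6 libraries and 6.26% with 5. Fev, the transcription factor that specifies serotonergic neurons, had 9.64, 16.4 and 12.49 RPKM at E12.5, against 0.292, 0 and 0 RPKM at E11.5. Tph2, the first enzyme of serotonin synthesis, had 6.43, 13.4 and 11.3 RPKM at E12.5 and no read at E11.5, so it was at least 102-fold higher. Slc6a4, the serotonin transporter, had 14.7, 26.6 and 20.99 RPKM at E12.5, against 0, 0.0702 and 0.291 RPKM at E11.5. E12.5 replicate 1 was the lowest of its stage for all 3 genes, and no E11.5 library came near it. The log2 changes were 3.64 ± 0.21 for Fev, 3.45 ± 0.24 for Tph2 and 4.25 ± 0.22 for Slc6a4 (adjusted p of 0.000258, 0.000301 and 0.000258). Gchfr, the feedback regulator of Gch1, moved with them at 8.07, 16.3 and 12.6 RPKM at E12.5 and 0, 0.274 and 0.379 RPKM at E11.5. Gata2 and Gata3, which serotonergic and GABAergic neurons share, changed by -0.37 and -0.35 and were not called.

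The ventral hindbrain pieces of this series showed the same 3 serotonergic genes. There Fev averaged 11.8 RPKM at E12.5 and 2.24 RPKM at E11.5, Tph2 averaged 20.3 and 1.54 RPKM, and Slc6a4 averaged 32.6 and 2.23 RPKM. In the ventral midbrain the E12.5 means were 12.9 RPKM for Fev, 10.4 RPKM for Tph2 and 20.8 RPKM for Slc6a4. Among 13 genes that mark hindbrain position, such as the Hox genes, the summed level was 18.5 to 20.7 RPKM at E12.5 and 11.6 to 17.4 RPKM at E11.5 in the ventral midbrain. Of 4 tested members 1 was called higher and 0 lower with 6 libraries, and 1 of 3 higher with 5. Among all genes 5.89% and 6.26% were called higher in these fits. No Hox gene listed exceeded 0.643 RPKM in any of the 6 libraries. The part of hindbrain tissue at the edge of the pieces was not tested.

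Motor neuron genes of the midbrain, which belong to the oculomotor nucleus, gave 3 called higher of 9 tested with 6 libraries and 2 with 5. Among all genes 5.89% and 6.26% were called higher. Slc18a3, which loads acetylcholine into vesicles, had 5.0, 5.79 and 4.15 RPKM at E12.5, against 0.734, 0.0795 and 1.32 RPKM at E11.5. Slc5a7, the choline transporter, rose alike (1.84 with 6 libraries and 1.48 with 5). Among the factors that specify these neurons, 2 are given here and did not pass: Isl1 changed by 1.14 and 0.12 and Lhx4 by 1.62 and 0.42 in the fits with 6 and 5 libraries. Both were at or below 0.990 RPKM in E11.5 replicate 4.

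Part of the GABAergic list fell. With 6 libraries 4 of 15 tested members were called lower and 0 higher, with 5 libraries 3 lower, against 3.57% and 3.95% of all genes. Tal2, a bHLH factor of midbrain GABAergic neurons, had 10.2, 9.50 and 16.0 RPKM at E12.5, against 44.9, 163 and 46.6 RPKM at E11.5. Its change was -2.49 with 6 libraries and -1.89 with 5 (adjusted p = 0.00516 and 0.000375). Helt, which selects GABAergic fate, had 1.63, 0.980 and 3.26 RPKM at E12.5, against 7.64, 15.3 and 6.76 RPKM at E11.5. Six3 changed by -2.19 and -1.504, and Tal1 passed with 6 libraries only. In contrast, the genes of the GABA phenotype itself did not pass in either fit: Gad1 changed by -0.74 and -0.17, Gad2 by -0.62 and -0.12, and Slc32a1 by -0.19 and 0.44. The summed level of the list was 127 to 159 RPKM at E12.5, 150 and 190 RPKM in E11.5 replicates 2 and 6 and 496 RPKM in replicate 4.

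Among 12 tested glutamatergic and red nucleus genes, 2 were higher and 2 lower with 6 libraries, and 3 higher and 2 lower of 10 with 5. Of all genes 5.89% were higher and 3.57% lower with 6 libraries, and 6.26% and 3.95% with 5. Pou4f1, a POU factor of red nucleus neurons, had 28.4, 31.1 and 32.5 RPKM at E12.5, against 5.92, 12.3 and 10.8 RPKM at E11.5. Slc17a8, the third vesicular glutamate transporter, rose by 2.14 with 6 libraries and 2.45 with 5. Meis2 had 3.63, 2.13 and 3.71 RPKM at E12.5, against 20.7, 20.49 and 19.8 RPKM at E11.5. Its 3 E11.5 libraries, replicate 4 included, lay close together, and it fell by 2.38 log2 units in both fits. Sim1, a factor of the territory beside the floor plate, fell by 1.64 with 6 libraries and by 2.28 with 5. Slc17a6, the main vesicular glutamate transporter of the midbrain, changed by 0.06.

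Floor plate genes gave a few calls, to be set against the shares of all genes. These were 5.89% called higher with 6 libraries, and 6.26% higher and 3.95% lower with 5. Of 20 floor plate genes, 3 were called higher with 6 libraries (Lmx1b and Ntn1 among them) with a median change of 1.29, and with 5 libraries Lmx1b was higher and Nkx2-9 lower with a median of 0.30. Leaving out E12.5 replicate 1, 2 or 3 from the 6 left 0 called higher, where 851, 717 and 692 of all genes were. Shh, the floor plate signal, had 53.9, 49.98 and 53.8 RPKM at E12.5, against 118, 12.8 and 79.7 RPKM at E11.5. It lay at E12.5 below E11.5 replicates 2 and 6 and above replicate 4, with changes of 0.07 (adjusted p = 0.944) and -0.87 (adjusted p = 0.0025). Corin and Ferd3l, which mark the midbrain floor plate, had 33.7 to 42.9 and 32.1 to 40.2 RPKM at E12.5, against 26.2 and 35.8 and 34.2 and 32.5 RPKM in E11.5 replicates 2 and 6, and 0.0779 and 0.203 RPKM in replicate 4. Ntn1, an axon attractant, had 239, 247 and 264 RPKM at E12.5, against 150, 42.6 and 139 RPKM at E11.5, and its change was 1.36 with 6 libraries and 0.78 with 5. The summed level of the list was 1378 to 1507 RPKM at E12.5, 1128 and 1017 RPKM in E11.5 replicates 2 and 6, and 138 RPKM in replicate 4.

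Genes of dorsal and lateral positions were highest in E11.5 replicate 4. Lhx2 had 0.290, 0.558 and 0.486 RPKM at E12.5, against 0.967, 64.0 and 1.73 RPKM at E11.5. Dbx1, a marker of the intermediate neural tube, had 0.371, 0.367 and 0.266 RPKM at E12.5, against 2.54, 63.1 and 0.761 RPKM at E11.5. Neither was called in either fit. Of 14 tested dorsal midbrain genes 2 were called lower with 6 libraries, Dmbx1 and Zic1, and with 5 libraries 1 of 10 was higher and 2 lower. Among all genes 3.57% were lower with 6 libraries, and 6.26% higher and 3.95% lower with 5. Dmbx1, a homeobox gene of the dorsal midbrain and of newborn midbrain cells, had 0.502, 0.408 and 0.445 RPKM at E12.5, against 9.50, 4.99 and 6.21 RPKM at E11.5. It was low in every E12.5 library and did not follow the split within E11.5, with changes of -2.40 and -2.58 (adjusted p = 0.00034 and 0.000179).

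**Figure D3:**
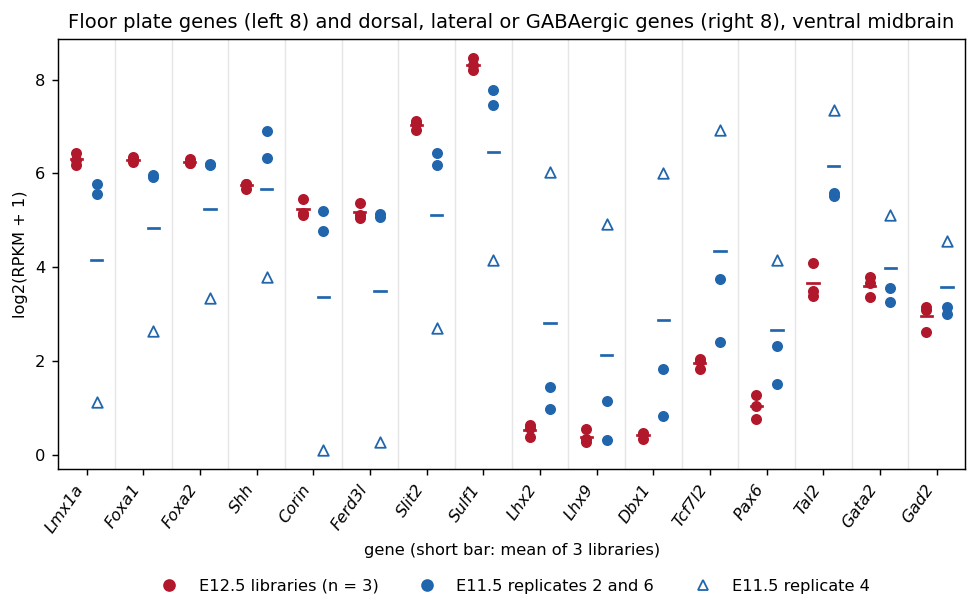
Values of 8 floor plate genes (left) and 8 dorsal, lateral or GABAergic genes (right) in log2(RPKM + 1), with the 3 E12.5 libraries (red) to the left of the 3 E11.5 libraries (blue). The open triangle is E11.5 replicate 4, which lies below all other libraries for the floor plate genes and above them for the others; short bars are group means.

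Cell cycle genes fell almost without exception. Of 35 members, all tested, 34 were called lower and 0 higher in both fits, with a median change of -1.63 with 6 libraries and -1.59 with 5, against 3.57% and 3.95% of all genes called lower. Top2a, which untangles DNA before mitosis, had 40.6, 25.5 and 25.7 RPKM at E12.5, against 118, 123 and 90.3 RPKM at E11.5 (log2 change -1.84, adjusted p = 0.000553). Ccnb1, the mitotic cyclin, had 20.2, 12.6 and 12.53 RPKM at E12.5, against 73.2, 60.7 and 58.6 RPKM at E11.5. Rrm2, which makes deoxynucleotides for replication, had 24.8, 16.7 and 15.3 RPKM at E12.5, against 127, 108 and 95.01 RPKM at E11.5 and had the largest change of the list (-2.50). The stages did not overlap for these genes, and E11.5 replicate 4 lay with the other E11.5 libraries. The remaining member, Cdk4, changed by -0.80 (adjusted p = 0.000405), under the fold threshold. The list took 0.208% to 0.288% of reads in the E12.5 libraries and 0.604% to 0.719% in the E11.5 libraries. E12.5 replicate 1 was the highest of its stage for 34 of the 35 genes.

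Progenitor genes gave a few calls, all higher. Of all genes 5.89% were called higher with 6 libraries and 6.26% with 5. Of 25 tested progenitor and radial glia genes 3 were higher and 0 lower, with a median of -0.09, and with 5 libraries 3 of 24 were higher, with a median of -0.15. Sox2, a factor of neural progenitors, had 59.7, 57.8 and 57.6 RPKM at E12.5, against 79.5, 75.7 and 66.3 RPKM at E11.5, a change of -0.33. Nes and Vim, intermediate filaments of radial glia, changed by -0.68 and -0.46 and were not called. Slc1a3, the glutamate transporter of radial glia, was called higher, with 74.1, 75.6 and 83.3 RPKM at E12.5, against 17.7, 5.71 and 15.7 RPKM at E11.5 (2.62 with 6 libraries and 2.15 with 5). Hopx, a radial glial gene, was called too at 1.58, and Tnc passed with 6 libraries only. Aldh1l1, a folate enzyme known as an astrocyte marker, had 37.5, 38.7 and 37.3 RPKM at E12.5, against 3.62, 3.08 and 4.94 RPKM at E11.5 (3.01 ± 0.14). Of 20 Notch pathway genes only Jag2, a ligand, was called higher in both fits (1.35 and 1.44), and none lower. That count is near the share of all genes. Hes5, a Notch target, changed by -0.79 and was not called.

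Proneural factors split by gene. Neurog1 had 1.70, 1.21 and 1.31 RPKM at E12.5, against 12.8, 17.7 and 10.9 RPKM at E11.5, and Neurod4 had 3.08, 2.17 and 2.41 RPKM against 18.2, 14.2 and 14.6 RPKM. Both fell in both fits, by 2.60 and 2.23 log2 units with 6 libraries. Neurog2, the proneural factor of the dopaminergic lineage, had 81.4, 67.9 and 59.0 RPKM at E12.5, against 89.9, 47.5 and 89.7 RPKM at E11.5, and its stages overlapped (change -0.08, adjusted p = 0.82). In all 1 of 16 tested proneural and newborn neuron genes was higher (Neurod6) and 2 were lower, the same numbers with 5 libraries. Of all genes 5.89% were higher and 3.57% lower with 6 libraries, so the count of higher members is near that of all genes.

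Genes of neuronal function were called higher in part. In the cytoskeleton and synapse list 11 of 33 were called higher and 0 lower with 6 libraries (median 0.73, against 5.89% of all genes called higher), and 11 higher and 1 lower, Syt4, with 5. Chgb, a granin of dense core vesicles, had 129, 145 and 128 RPKM at E12.5, against 34.1, 25.3 and 33.0 RPKM at E11.5. Mapt, the axonal microtubule protein tau, had 190, 241 and 226 RPKM at E12.5, against 54.3, 70.2 and 68.6 RPKM at E11.5. Their changes were 2.10 and 1.75 with 6 libraries, and the stages did not overlap. General neuronal genes that newborn neurons already express moved less and were not called: Tubb3 changed by 0.39, Dcx by 0.24 and Map2 by 0.12.

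Receptors for transmitters were called higher in 14 of 28 tested genes with 6 libraries and 16 with 5, none lower, with medians of 0.98 and 1.10, against 5.89% and 6.26% of all genes called higher. Gria3, an AMPA receptor subunit, had 10.6, 11.4 and 12.3 RPKM at E12.5, against 1.36, 2.10 and 1.83 RPKM at E11.5 (2.18). Grin1, the obligatory NMDA receptor subunit, rose by 1.77, Gabra5 by 1.80 and the glycine receptor subunit Glra2 by 1.66, and with 5 libraries by 1.75, 1.73 and 1.61. Ion channels were higher in 7 of 24 tested genes with 6 libraries and 11 with 5, none lower, against the same shares of all genes. Kcnk9, a two-pore potassium channel, had 43.1, 45.1 and 43.1 RPKM at E12.5, against 7.41, 0.458 and 6.11 RPKM at E11.5. Its change was 3.34 ± 0.61 with 6 libraries and 2.53 ± 0.09 with 5. Kcnd3 and Kcnd2, A-type potassium channels, rose by 1.76 and 1.55.

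Axon guidance genes were called higher in 8 of 37 with 6 libraries, also 8 with 5, and 5 when E12.5 replicate 2 or 3 was left out. Without replicate 2 or 3, 717 and 692 of all genes were called higher. Among all genes 5.89% were called higher with 6 libraries and 6.26% with 5. Robo3, the receptor that lets commissural axons cross the floor plate, had 56.5, 39.9 and 37.1 RPKM at E12.5, against 1.24, 27.7 and 4.69 RPKM at E11.5. The E11.5 libraries differed widely, and the change was 2.65 (adjusted p = 0.0324) with 6 libraries and 3.65 (adjusted p = 0.000355) with 5. The 6-library call was lost when any other library than E11.5 replicate 4 was left out (adjusted p of 0.0644 to 0.0992). Efnb3, a midline ephrin, had 138, 141 and 152 RPKM at E12.5, against 49.6, 21.5 and 48.8 RPKM at E11.5 (1.91 and 1.52). Robo2, Plxna4 and Sema6d rose by 1.56, 1.48 and 1.15. Unc5b, a netrin receptor, passed as lower with 6 libraries only. Slit2, Slit1 and Nrp2 changed by 1.93, 1.64 and 2.02 with 6 libraries without passing, and by 0.73, 0.72 and 0.99 with 5.

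Of 37 tested Wnt pathway genes 5 were called higher and 2 lower with 6 libraries, and 5 higher and 4 lower with 5. Of all genes 5.89% were called higher and 3.57% lower with 6 libraries, and 6.26% and 3.95% with 5, so the count of lower members with 6 libraries is near that of all genes. Prickle1 and Prickle2, of the planar polarity branch, rose by 1.56 and 1.08, and the ligands Wnt4 and Wnt8b by 1.34 each. The secreted inhibitor Wif1 rose by 1.18, whereas Sfrp2, another, fell by 1.57. Tcf7l1, a repressor of Wnt targets, had 7.64, 7.14 and 7.98 RPKM at E12.5, against 17.9, 16.8 and 15.6 RPKM at E11.5 (-1.05 in both fits). Wnt1 and Wnt5a, ligands of the dopaminergic niche, did not pass in either fit, at 0.50 and 0.24 with 6 libraries and -0.56 and -0.28 with 5. Axin2, a general target, changed by 0.09. In the hedgehog list 1 of 15 was called lower with 6 libraries, Gas1, and none with 5. Of 19 heparan sulfate and matrix genes 4 were higher in each fit, against the same shares of all genes. Vcan, a chondroitin sulfate proteoglycan, had 19.9, 21.4 and 28.6 RPKM at E12.5, against 8.90, 9.91 and 9.24 RPKM at E11.5 (1.22), and Tnr rose by 1.33.

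Embryonic globins fell. Hbb-bh1, a globin of primitive red cells, had 21.1, 9.51 and 6.95 RPKM at E12.5, against 405, 248 and 896 RPKM at E11.5, a change of -5.20 ± 0.53 (adjusted p = 0.000462), and -5.62 with 5 libraries. Hba-x, the embryonic alpha globin, had 113, 95.4 and 88.4 RPKM at E12.5, against 594, 458 and 1321 RPKM at E11.5. The adult globin Hbb-b1 had 112, 165 and 172 RPKM at E12.5, against 44.8, 42.1 and 133 RPKM at E11.5, and was not called (1.20, adjusted p = 0.0511). Reads of the adult beta globins, which are near-identical copies listed under several names, may be split among them. With E11.5 replicate 6 left out, 4 erythroid genes were called higher, and 891 of all genes. The number tested in that fit is not given here. Of 12 tested erythroid genes 6 were lower and 0 higher with 6 libraries, and 9 of 14 lower with 5. Among all genes 3.57% and 3.95% were called lower. The list took 0.103% to 0.109% of reads at E12.5 and 0.168% to 0.490% at E11.5, with replicate 6 the highest.

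Lists of other cell types were short, and their called members are to be set against the shares of all genes. With 6 libraries 5.89% of all genes were called higher and 3.57% lower, and with 5 libraries 6.26% and 3.95%. In the microglia list 1 gene was lower in both fits, Pf4, of 12 tested with 6 libraries, and the defining genes Csf1r, C1qa and Cx3cr1 changed by 0.18, 0.07 and 0.20 without being called. Of 17 vessel genes 2 were higher (Pdgfrb and Rgs5, of pericytes) and 1 lower, with a median of 0.35, and with 5 libraries 1 was higher and 2 lower, Pdgfrb having passed with 6 only. Of 12 tested mesenchyme genes 1 was higher, Postn, with 5 libraries 1 of 13 was higher and 1 lower, and the collagens Col1a1 and Col3a1 had 14.7 and 52.5 RPKM in E11.5 replicate 6 and at most 2.37 RPKM in the other 5 libraries. Of 6 tested oligodendrocyte precursor genes 2 were lower and 0 higher with 6 libraries, and 2 lower and 1 higher with 5. Gpr17, a receptor of that lineage, had 0.261, 0.218 and 0.292 RPKM at E12.5, against 2.97, 1.93 and 2.87 RPKM at E11.5 (log2 change -1.4995, and -1.64 with 5 libraries). The summed level of the list was 11.7 to 15.7 RPKM at E12.5 and 37.9 to 51.9 RPKM at E11.5, without overlap. Of 5 tested neural crest and peripheral genes 1 was higher, Pou4f1, and 1 lower in both fits. No immediate early or stress gene of 7 tested was called.

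The naming rule picked further decreases. Lin28a, which blocks let-7 microRNA processing, had 0.258, 0.174 and 0.135 RPKM at E12.5, against 7.09, 11.1 and 6.63 RPKM at E11.5 (-2.93 ± 0.20). Hmga2, a chromatin protein and let-7 target, had 1.86, 1.58 and 1.45 RPKM at E12.5, against 13.4, 27.3 and 16.5 RPKM at E11.5 (-2.87). Crabp1 and Crabp2, retinoic acid binding proteins, had 1.03 to 1.65 and 8.12 to 14.4 RPKM at E12.5, against 16.7 to 150 and 102 to 184 RPKM at E11.5. In both genes E11.5 replicate 4 was the highest, and without it the changes were -3.40 and -3.22, against -4.29 and -3.48 with it. Lrtm1, a surface protein of dopaminergic progenitors, had 1.54, 0.659 and 0.626 RPKM at E12.5, against 24.5, 1.13 and 22.5 RPKM at E11.5. It was called without replicate 4 (-3.69, adjusted p = 0.000126) and not with it (-2.52, adjusted p = 0.0529).

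**Figure D4:**
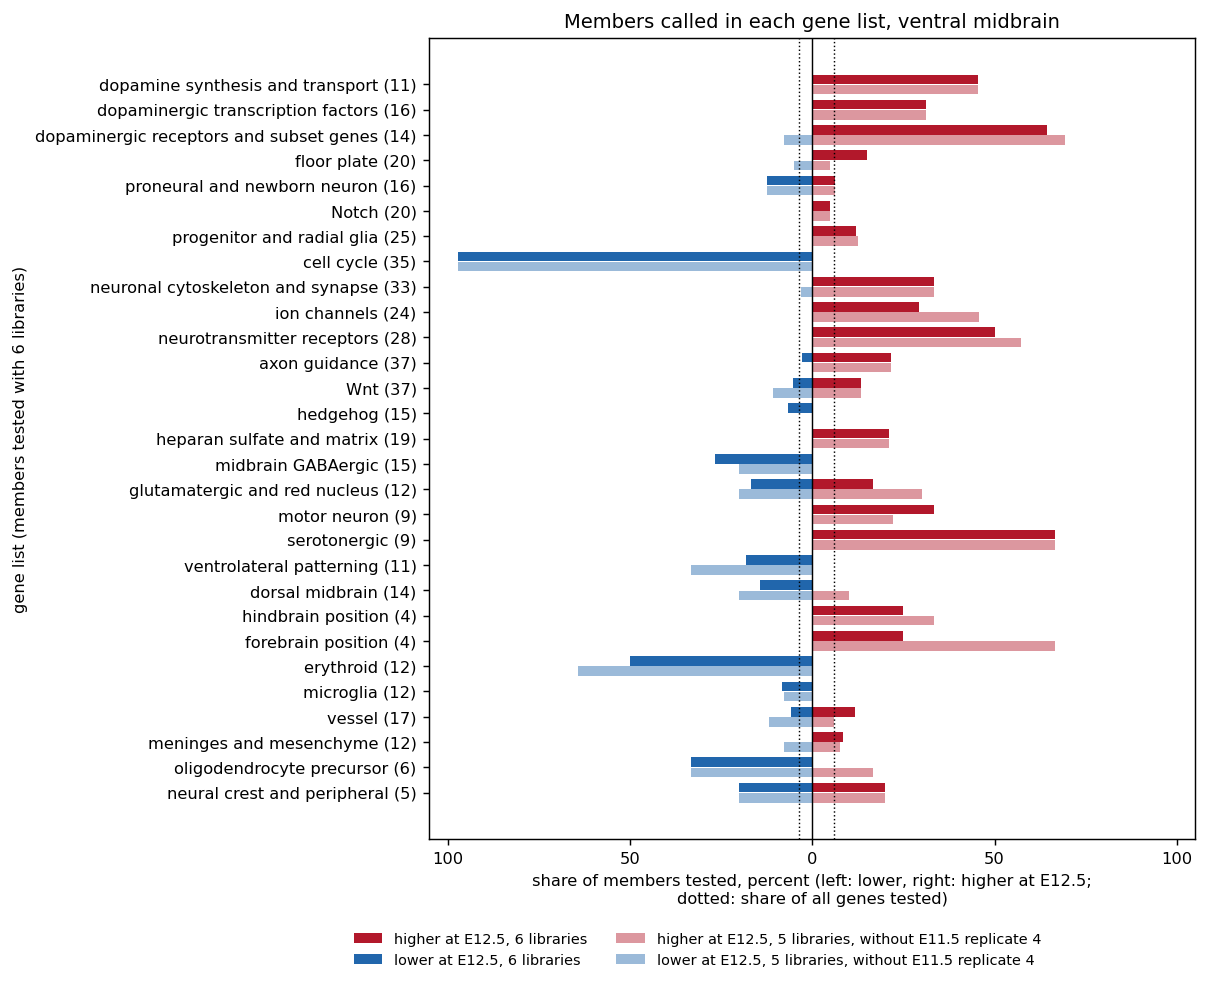
Share of tested members called higher (to the right) or lower (to the left) at E12.5 in 29 gene lists, with dark bars for 6 libraries and pale bars for 5, without E11.5 replicate 4. Numbers in brackets are members tested with 6 libraries, and dotted lines the share of all genes tested, 5.89% higher and 3.57% lower. The cell cycle list stands out to the left, and the serotonergic and dopaminergic receptor lists to the right.

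To ask which changes were particular to the ventral midbrain, its step was set against the mean step of 3 other regions. These were the ventral forebrain, ventral hindbrain and alar plate, whose libraries share the description prefixes of both stages. These comparison groups were not uniform: 6 of their 9 E11.5 libraries and 4 of their 9 E12.5 libraries correlated best with another group than their own. The library labelled E11.5 ventral forebrain replicate 4, for example, had r = 0.988 with the ventral hindbrain and r = 0.936 with its own group. Whether labels were exchanged was not tested, so each region's step is that of the libraries so labelled. With 24 libraries, 97 of 14171 genes differed between the steps (0.684%), 73 with a more positive step in the ventral midbrain (0.515%) and 24 with a more negative one (0.169%). Without ventral midbrain E11.5 replicate 4 there were 34 (0.239%), of which 26 were among the 97, with 0.162% of genes called in the positive and 0.0775% in the negative direction. With replicate 2 of the alar plate and of the ventral hindbrain at E11.5 left out too, there were 44 (0.308%), 0.189% positive and 0.119% negative. Leaving out E12.5 replicate 1, 2 or 3 in turn left 26, 20 and 27 genes.

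Chrna6, Pitx3, Slc6a3 and Gch1 differed with and without replicate 4. The step of Chrna6 exceeded the mean step elsewhere by 3.30 ± 0.18 (adjusted p = 1.32e-09) with 24 libraries, and by the same amount without replicate 4. That of Pitx3 exceeded it by 4.0 ± 0.35 (adjusted p = 2.38e-06) and 3.89, that of Slc6a3 by 3.17 and 3.17, and that of Gch1 by 2.81 and 2.68. Th and Lmx1b exceeded it by 3.32 (adjusted p = 0.0329) and 4.67 (adjusted p = 0.0334), and both calls were lost without replicate 4 (adjusted p of 0.137 and 0.145). Leaving out any E12.5 library of the ventral midbrain lost both calls too (adjusted p of 0.0977 to 0.107 for Th and 0.103 to 0.111 for Lmx1b). Vip, Gucy2c and Gchfr were called in both fits, and Ret, Slc18a3 and Slc5a7 with 24 libraries and not without replicate 4. Aldh1a1 had a more negative step without replicate 4 only (-1.71, adjusted p = 0.0139). Dlk1, an imprinted gene of dopaminergic neurons, passed without replicate 4 only, by 2.55 (adjusted p = 0.0436).

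Slc6a4 exceeded the mean step elsewhere by 3.91 (adjusted p = 0.00581) and without replicate 4 by 3.88 (adjusted p = 0.0231). The regions behind that mean differed: its step was 3.68 in the ventral hindbrain, -2.12 in the ventral forebrain and -0.52 in the alar plate. Fev and Tph2 had steps of 2.29 and 3.40 in the ventral hindbrain as well. The E11.5 ventral forebrain libraries, where these genes averaged 4.25 to 5.97 RPKM, thus entered the comparison.

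Genes with a more negative step in the ventral midbrain were led by Tcf7l2, a Wnt effector of the diencephalon, at -5.35 (adjusted p = 0.0108), and without replicate 4 at -4.07 (adjusted p = 0.0189). It had 3.12, 2.56 and 3.01 RPKM at E12.5 in the ventral midbrain, against 4.27, 120 and 12.45 RPKM at E11.5, while its steps in the ventral forebrain and alar plate were 5.48 and 3.76. Six3 differed by -4.16 and -3.48 in these fits and Dmbx1 by -2.22 and -2.40. Six3os1, antisense to Six3, differed by -3.82, and without the strand of the libraries its reads and those of Six3 cannot be told apart.

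Cell cycle genes and embryonic globins also had negative steps in the other regions. None of the 35 cell cycle genes differed in its step from the other regions, the smallest adjusted p being 0.637, and their median step was -1.63 in the ventral midbrain, -2.08 in the ventral forebrain, -1.81 in the ventral hindbrain and -1.39 in the alar plate. The step of Hbb-bh1 was -5.20 here and -5.29 on average elsewhere, and those of Hmga2 were -2.87 and -2.88. Chd5, a chromatin remodeller of neurons, rose by 3.17 in the ventral midbrain and 3.14 elsewhere. Such near-equal steps do not show that the regions changed alike, since for single genes the standard error of the difference was large, for instance 0.88 for Hbb-bh1 and 0.52 for Hmga2.

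**Figure D5:**
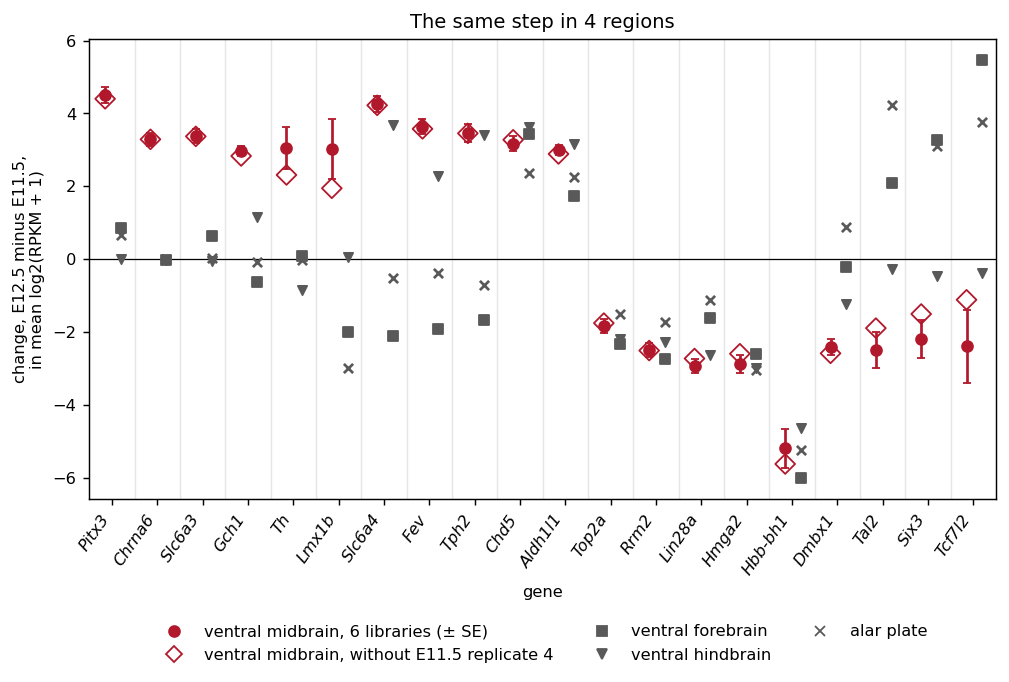
Change from E11.5 to E12.5 in mean log2(RPKM + 1) for 20 genes. Red circles with bars are the ventral midbrain with 6 libraries and its standard error, open diamonds the ventral midbrain without E11.5 replicate 4, and grey symbols the ventral forebrain, ventral hindbrain and alar plate. Pitx3, Chrna6 and Slc6a3 change mainly in the ventral midbrain, Slc6a4 and Tph2 also in the ventral hindbrain, and Top2a, Hmga2 and Hbb-bh1 in all 4 regions.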

How the data were processed

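The labels' protocols describe total RNA from dissected mouse brain pieces, purified with RNeasy columns and made into TruSeq libraries. The authors deposited 1 table of RPKM values for 24378 features in 60 libraries. Reads were aligned with Bowtie to mm10, per the submitters' processing notes; its version, the read counter, the annotation and the strand setting were not given in the sources used here. Of the deposited values 100.0% were whole reads within a share of 0.001 of the count (at least 0.001 of a read), which gave each library's total. That limit grows with the count, so at high counts the check could not fail.

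Libraries were grouped by region and stage label. Values were tested as log2(RPKM + 1) with limma 3.58.1 (R 4.3.3; empirical Bayes with a mean trend) and Benjamini-Hochberg adjustment over all genes with a group mean of at least 1 RPKM, since RPKM are not counts. A gene was called at an adjusted p below 0.05 and an absolute log2 change of at least 1. The ventral midbrain step was fitted with 6 libraries, with 5, and as a difference from the mean step of 3 regions over 24 libraries. With 3 libraries against 3 an exact permutation test of a single gene cannot go below p = 0.1. Counting intervals and floors of 3 reads cover counting error only. On simulated data the fit with 6 libraries (13218 genes) recovered 96% of changes of 1.5 log2 units and 98% of changes of 3. With 5 libraries (13276 genes) these were 98% and 100%, and for the regional difference (13727 genes) 81% and 98%. False calls numbered 7, 14 and 4. The changed genes averaged at least 5 RPKM and no library was simulated as standing apart, so recovery at lower levels was not tested. Summaries and plots used Python 3.11.15, NumPy 2.4.6, pandas 2.3.3, SciPy 1.17.1 and Matplotlib 3.10.9.

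Members and gene lists were chosen with earlier results of these data known. Named genes were 11 dopaminergic genes, up to 12 in each direction with the largest change, no overlap and a mean of at least 5 RPKM, up to 10 more without E11.5 replicate 4, up to 6 of the regional difference, and from each list the called members and up to 5 with the smallest p. Other members of the lists that are named were chosen after their values were seen. Alternatives changed the pseudocount (0.1 RPKM), the filter, the scaling (TMM), the weights, the model (voom on the recovered reads) and the libraries. Some results are not reported here.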

Additional observations from a re-analysis of the deposited data

Results flagged for a closer look

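For 12 genes the ventral midbrain step from E11.5 to E12.5 differed from the mean step of the ventral forebrain, ventral hindbrain and alar plate by limma's test of that difference over 24 libraries, and these were the 6 largest called differences in each direction among genes averaging at least 5 RPKM in one group. Lmx1b differed by 4.67 (adjusted p = 0.0334), Pitx3 by 4 (adjusted p = 2.38e-06), Slc6a4 by 3.91 (adjusted p = 0.00581), Fev by 3.64 (adjusted p = 0.0174), Th by 3.32 (adjusted p = 0.0329) and Chrna6 by 3.3 (adjusted p = 1.32e-09). In the negative direction Tcf7l2 differed by -5.35 (adjusted p = 0.0108), Tal2 by -4.52 (adjusted p = 0.0264), Six3 by -4.16 (adjusted p = 0.00275), Tfap2d by -4.11 (adjusted p = 0.0271), Six3os1 by -3.82 (adjusted p = 0.0301) and Asic4, an acid-sensing channel subunit, by -3.68 (adjusted p = 0.0108). Rises elsewhere entered the value of Tal2: its step was -2.49 in the ventral midbrain, 2.10 in the ventral forebrain, -0.27 in the ventral hindbrain and 4.24 in the alar plate.

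Without E11.5 replicate 4 of the ventral midbrain, Pitx3 (3.89), Slc6a4 (3.88), Chrna6 (3.30), Tcf7l2 (-4.07) and Six3 (-3.48) still passed. Fev (3.58, adjusted p = 0.0641), Th (2.57, adjusted p = 0.137), Lmx1b (3.58, adjusted p = 0.145), Tal2 (-3.92, adjusted p = 0.118), Tfap2d (-2.88, adjusted p = 0.0715), Six3os1 (-3.17, adjusted p = 0.136) and Asic4 (-3.21, adjusted p = 0.0517) did not. Tfap2d, a factor of the dorsal midbrain, had 0.0523 to 0.144 RPKM at E12.5 in the ventral midbrain, against 0.250, 14.2 and 0.149 RPKM in E11.5 replicates 2, 4 and 6.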

How the results depend on the processing

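With 6 libraries 1266 genes were called, and 1115 to 1400 when single libraries were left out; voom on the recovered reads called 1955 (1268 higher and 687 lower). With 5 libraries the count was 1370 and the range 1289 to 1766. For the regional difference the main count of 97 became 64 with a pseudocount of 0.1 RPKM, 58 with a filter at 5 RPKM, 427 with array weights, 158 with the dorsal midbrain as a further region, 115 without replicate 2 of the alar plate and of the ventral hindbrain at E11.5, and 20 to 95 with single ventral midbrain libraries left out. Chosen after seeing the data, leaving out 3 E11.5 libraries gave 44. The cause of these shifts was not tested. No called change of a named gene reversed under the alternatives run. Values that were not called did change sign between 6 and 5 libraries: Shh (0.07 and -0.87), Wnt1 (0.50 and -0.56), Wnt5a (0.24 and -0.28), Slc32a1 (-0.19 and 0.44), and the medians of the GABAergic (-0.35 and 0.19) and Wnt lists (0.10 and -0.02). Of the named gene changes under alternatives, 5715 kept their side of the threshold, 150 newly passed and 200 no longer passed. The planned count-model alternatives were not run, since the values are RPKM. No paired analysis was possible because the ventral midbrain groups share replicate number 2 only. For the regional difference a fit with the replicate block called 67 genes, and 17 without E11.5 replicate 4. Of 18 same-numbered pairs 10 had a correlation above 0.1 (range -0.267 to 0.379) and 12 matched their own number best, among them all 6 E12.5 pairs with the ventral forebrain and ventral hindbrain (0.228 to 0.379). That is a hint of pairing from the data; since not every pair passed and the labels tie no number to a shared litter or day, the block was not made the main fit. Depth was lowest at 2166232 reads among the ventral midbrain libraries and at 1580061 among the 24; its part in what passed was not tested.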

Other observations

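The 3 E12.5 libraries were not ordered evenly. Replicate 1, the shallowest of them, was the lowest of the 3 in 597 of the 788 genes called higher at E12.5 (75.8%), against 35.3% of all genes tested. It was the highest of the 3 in 384 of the 478 genes called lower (80.3%), against 40.5% of all genes tested. Without it 1385 genes were called with the other 5 libraries.

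Lum, a proteoglycan of connective tissue, had no read in any E12.5 library or in E11.5 replicates 2 and 4, and 18.3 RPKM in E11.5 replicate 6. The platelet and macrophage gene Pf4 had its highest level there as well, at 15.6 RPKM.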
